A study of Homo sapiens with 12 samples.

Results

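The genes described here are 7 transcription factors of the ventral lateral neural tube: the homeodomain factors NKX2-2, NKX6-1, NKX6-2, DBX1 and PHOX2A, and the basic helix-loop-helix factors OLIG2 and SIM1. They were taken by name from the deposited tables, which list 25718 genes, and all 7 were among the 11451 genes with a mean above 10 counts that were tested. Each of the 7 was listed under a single RefSeq transcript: NM_002509 for NKX2-2, NM_006168 for NKX6-1, NM_177400 for NKX6-2, NM_005806 for OLIG2, NM_005068 for SIM1, NM_005169 for PHOX2A and NM_001029865 for DBX1.

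RNA was sequenced from cultures of the human embryonic stem cell line H9 that had been differentiated toward ventral midbrain for 14 days. Shh at 200 ng/ml and the GSK3 inhibitor CT99021 were given in the first part of this time and ended before day 11. All 12 cultures had been transduced as stem cells, at a multiplicity of infection of 50, with a lentiviral vector that expresses miR-10a or miR-10b under control of doxycycline. There were 4 groups of 3 samples: miR-10a with doxycycline from day 11 to day 14, miR-10a without it, miR-10b with doxycycline over the same days, and miR-10b without it. The control in each comparison is therefore the same kind of transduced culture without the drug, so an effect of doxycycline itself and an effect of the microRNA cannot be told apart. The labels number the samples in each group but do not say whether they are separate differentiations, so the p-values measure the spread between these samples, which may be technical.

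Sonic hedgehog released by the notochord and floor plate patterns the ventral neural tube. Its signal, passed on by the GLI transcription factors, switches on factors such as NKX2-2, NKX6-1, NKX6-2 and OLIG2 in nested ventral domains and keeps factors such as DBX1, IRX3 and PAX6 out of the most ventral ones, and neighbouring factors repress each other, which sharpens the borders. SIM1 marks interneurons born next to the floor plate in the spinal cord, and PHOX2A is needed for the oculomotor and trochlear nuclei of the midbrain and for noradrenergic neurons. miR-10a and miR-10b lie within the HOX clusters and are normally made in hindbrain and spinal cord.

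The sequences of the induced microRNAs are given because their seed, bases 2 to 8 of the mature strand, decides which messages they pair with. Capitals mark the seed in the mature miR-10a strand and the same 7 letters in the miR-10b hairpin, where they stand at bases 28 to 34. hsa-miR-10b-5p is named only. The sequences are from RefSeq (GRCh38.p14): hsa-miR-10a-5p at chr17:48579904-48579926 on the minus strand, and the MIR10B hairpin at chr2:176150303-176150412 on the plus strand.
hsa-miR-10a-5p: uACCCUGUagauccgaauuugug
MIR10B: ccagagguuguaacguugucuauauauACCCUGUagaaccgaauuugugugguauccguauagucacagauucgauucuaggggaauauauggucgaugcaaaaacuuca

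The 3′ untranslated regions of the 7 genes were searched for letters that pair with this seed. In the longest annotated 3′ untranslated region of each gene (GENCODE 44 on GRCh37), none had a match to bases 2 to 8 or to bases 2 to 7 followed by an A (ACAGGGT or CAGGGTA in the sense of the message, overlapping matches counted once). Of 9269 tested genes with an annotated 3′ untranslated region, 22.5% had at least 1 such match. The weakest class, a match to bases 2 to 7 alone, occurred once in OLIG2 and once in SIM1, and 43.9% of the tested genes had a match of this length or longer. The OLIG2 match lies at chr21:34400666-34400671 on the plus strand, bases 524 to 529 of a region of 1362 bases. The SIM1 match lies at chr6:100838064-100838069 on the minus strand, bases 168 to 173 of a region of 5352 bases. Both are shown in the sense of the message, with 11 bases on each side and the match in capitals. A match of letters is a description and not a proven site.
OLIG2: accgcgccctcCAGGGTcgtccctggcc
SIM1: gcactagcattCAGGGTtatacacagaa

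NKX6-1, NKX6-2, NKX2-2, PHOX2A and DBX1 held none of these letters in the annotated region, whose length ran from 59 bases in DBX1 to 1735 in NKX6-2. Of the 2 genes with a match, OLIG2 passed no test of induction, and SIM1 rose with miR-10b.

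The genes lie apart in the genome (GRCh37): NKX2-2 at chr20:21491655-21494702, NKX6-1 at chr4:85413138-85420445, NKX6-2 at chr10:134596683-134599651, OLIG2 at chr21:34398243-34401504, SIM1 at chr6:100832885-100912797, PHOX2A at chr11:71950121-71956708 and DBX1 at chr11:20177701-20182021. OLIG2 is on the plus strand and the other 6 are on the minus strand. Of the annotated exon bases of NKX2-2, 638 of 2123 also lie in exons of its antisense RNA NKX2-2-AS1. For PHOX2A 71 of 1699 lie in exons of INPPL1, and for NKX6-2 300 of 2768 lie in exons of INPP5A, of which the counted NKX6-2 model holds 1019 bases in all. Whether the counting used strand is not given in the sources used here, so reads from such shared bases cannot be assigned to one gene with certainty. INPPL1 was at 305.58 to 360.05 counts scaled to a library total of 1000000 (CPM), far above PHOX2A, and differed by 0.12 on the log2 scale between the uninduced cultures. INPP5A was at 132.79 to 164.3 CPM, a level like that of NKX6-2. With doxycycline INPP5A differed by 0.101 with miR-10a, 0.064 with miR-10b and 0.083 over both vectors. The part of reads from the shared bases in the differences of NKX6-2 was not tested.

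Library totals ran from 10545487 to 14165426 counts, so that 3 counts, the limit that a count of 0 allows, corresponded to 0.212 to 0.284 CPM. In each vector all 3 control totals were higher than all 3 doxycycline totals. The induced hairpins matched the labels: MIR10A was at 723.7 CPM with doxycycline and 0.9985 CPM without it in the miR-10a cultures, and MIR10B at 2619 and 3.548 CPM in the miR-10b cultures. Replicates differed by slightly more than sampling noise, with a chi-square per degree of freedom of 1.204 to 1.812, except for the 2 pairs that hold miR-10b doxycycline replicate 2, at 2.917 and 3.733. The cultures carried most of the listed markers of neural progenitors, whose 8 genes summed to 10300 to 12000 CPM. Most of this sum was NES, at 4340 to 5190 CPM, and VIM, at 4130 to 4940 CPM. SOX2 was at 1020 to 1210 CPM, HES5 at 82.4 to 103 CPM and SOX1 at 20.4 to 54.2 CPM. PAX6, listed under 7 transcripts, had 0 or 1 count. The 6 pluripotency genes summed to 532 to 671 CPM, of which LIN28B was at 431 to 522 CPM and DPPA4 at 102 to 155 CPM, while ZFP42, NANOG, POU5F1 and L1TD1 had at most 2 counts in any sample, the last 3 being listed under several transcripts. The 7 genes of pancreatic endoderm, a tissue that also uses NKX2-2 and NKX6-1, summed to 2.56 to 4.04 CPM, with PDX1 at 0 or 1 count. The 6 neural crest genes summed to 5.18 to 8.28 CPM and the 5 mesendoderm genes to at most 1.14 CPM.

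All 7 factors were expressed in all 12 samples, but at very different levels. Per kilobase of the counted transcript, NKX6-2 was highest in the miR-10a control cultures at 138 ± 4.63 CPM per kilobase (SD, n = 3), followed by DBX1 at 96.6 ± 4.25, NKX6-1 at 75.3 ± 3.29, SIM1 at 44.9 ± 1.41, NKX2-2 at 26.8 ± 1.06, OLIG2 at 6.58 ± 0.72 and PHOX2A at 3.65 ± 0.179. The order was the same in all 4 groups, and in every group each gene was apart from its neighbours, its lowest sample above the highest sample of the next gene. Without the division by length, which puts SIM1 first because its transcript of 3995 bases is the longest, 4 of the 7 genes changed rank. Read counts ran from 62 to 125 for PHOX2A, and from 186 to 238 for OLIG2, so these 2 are the least precise. For the other 5 the lowest count in any sample was 364, in NKX2-2. The counted models of NKX6-1 (1116 bases), NKX6-2 (1019) and DBX1 (1032) are the shortest, shorter than the annotated messages of NKX6-1 and NKX6-2, so their place in the order depends on those models.

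**Figure D1:**
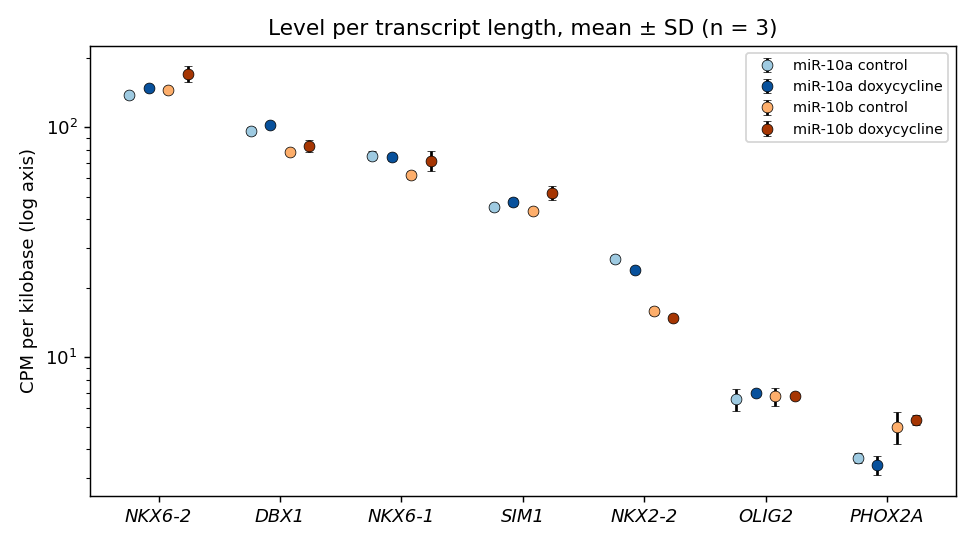
Level of each factor in CPM per kilobase of transcript (log axis), as mean ± SD of 3 samples in each of the 4 groups. The order from NKX6-2 down to PHOX2A is the same in all groups, from 138 to 3.65 CPM per kilobase in the miR-10a control cultures.

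**Figure D2:**
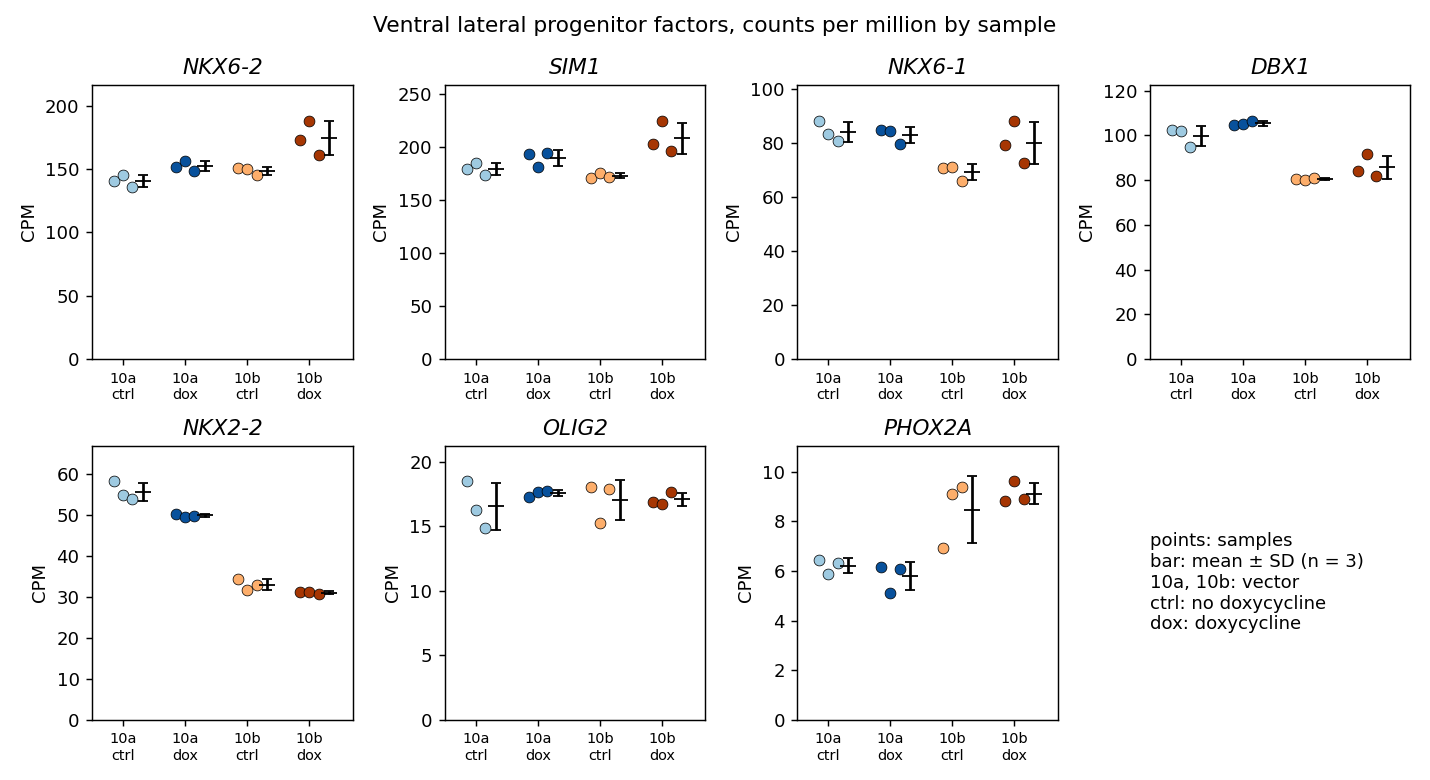
CPM of the 7 factors in each of the 12 samples (points; bars are mean ± SD, n = 3), by vector and doxycycline, each panel on its own axis from 0. NKX2-2 lies between 54.0 and 58.2 CPM in the miR-10a controls and between 31.7 and 34.5 CPM in the miR-10b controls, and the miR-10b doxycycline samples are the highest for NKX6-2 and SIM1.

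The next question was whether inducing either microRNA for the last days of culture, after Shh and CT99021 had ended, changed these factors. With miR-10b, SIM1, NKX6-2 and NKX6-1 rose, each by about 1.20-fold or less, and no member passed the test as lower. With miR-10a no member passed the test. Averaged over both vectors, NKX6-2 and SIM1 rose and NKX2-2 fell slightly.

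SIM1, the basic helix-loop-helix factor of interneurons next to the floor plate, was at 202, 225 and 196 CPM in the miR-10b doxycycline samples and at 171, 175 and 172 CPM in their controls. Every doxycycline sample was above every control. The fitted difference was 0.27 on the log2 scale (SE 0.04), a 1.20-fold rise with an adjusted p of 1.5e-05. Unless stated otherwise, adjusted p-values are from the quasi-likelihood test of edgeR and were corrected over all tested genes by the Benjamini-Hochberg method. In the miR-10a cultures SIM1 was at 193, 181 and 194 CPM with doxycycline and at 179, 185 and 174 CPM without it, and there the groups overlapped (log2 fold change 0.08, SE 0.04, adjusted p = 0.52).

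NKX6-2, a repressor that shares ventral progenitor domains with NKX6-1, was at 173, 188 and 161 CPM with miR-10b induced and at 151, 150.15 and 145 CPM in the controls. Again the groups did not overlap, and the fitted rise was 0.23 on the log2 scale (SE 0.04, adjusted p = 0.00021). In the miR-10a cultures NKX6-2 was at 152, 157 and 149 CPM with doxycycline and at 141, 146 and 136 CPM without it. There too the doxycycline samples were all higher, but the difference of 0.11 (SE 0.04) did not pass the test (adjusted p = 0.29).

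NKX6-1, which specifies motor neuron and ventral interneuron progenitors, was at 79.2, 88.2 and 72.5 CPM with miR-10b induced and at 70.6, 71.1 and 65.9 CPM in the controls. The groups stood apart by a narrow gap, with a rise of 0.21 on the log2 scale (SE 0.055, adjusted p = 0.0077). The highest value came from replicate 2, the library that differed most from its replicates. Without that library the difference was 0.13 and the call was lost (adjusted p = 0.0945). The call was also lost without miR-10b control replicate 3 (0.17, adjusted p = 0.0681). Replicate 2 also gave the highest miR-10b doxycycline value of SIM1, NKX6-2 and DBX1. With 1 sample left out, the rise with miR-10b ranged from 0.207 to 0.306 for SIM1 and from 0.17 to 0.281 for NKX6-2. In the miR-10a cultures NKX6-1 was at 84.8, 84.3 and 79.7 CPM with doxycycline and at 88.1, 83.3 and 80.9 CPM without it, and the groups overlapped (-0.02, SE 0.05, adjusted p = 0.95).

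NKX2-2, the factor of the most ventral domain beside the floor plate, was at 50.4, 49.5 and 49.8 CPM with miR-10a induced and at 58.2, 54.9 and 54.0 CPM in the controls. With miR-10b induced it was at 31.2, 31.2 and 30.7 CPM against 34.5, 31.7 and 32.8 CPM. In both vectors all 3 doxycycline samples were below all 3 controls, by a wide margin for miR-10a and by a small one for miR-10b. The separate differences, -0.16 (SE 0.05) and -0.09 (SE 0.06), did not pass the test (adjusted p = 0.19 and 0.39). Their average did: NKX2-2 fell by 0.12 on the log2 scale (SE 0.04, adjusted p = 0.041). This call is not firm, because 8 of the 12 fits that left out 1 sample lost it, with adjusted p from 0.038 to 0.12 and differences from -0.14 to -0.11.

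DBX1, a homeodomain factor of the progenitors dorsal to the NKX6-1 domain, was higher in every doxycycline sample than in every control of its vector. It was at 104.69, 104.98 and 107 CPM against 102, 102 and 94.6 CPM for miR-10a, and at 84.1, 91.6 and 81.7 CPM against 80.7, 80.1 and 80.8 CPM for miR-10b. The differences were small, at 0.08 (SE 0.05) and 0.09 (SE 0.05), and neither passed the test, nor did their average of 0.09 (SE 0.03, adjusted p = 0.076). Without miR-10b doxycycline replicate 3 the averages of DBX1 (0.10, adjusted p = 0.0316) and of NKX6-1 (0.13, adjusted p = 0.0152) did pass.

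OLIG2, which specifies motor neurons and oligodendrocytes, was at 17.3, 17.6 and 17.7 CPM with miR-10a induced and at 18.5, 16.2 and 14.9 CPM in the controls. With miR-10b induced it was at 16.9, 16.7 and 17.6 CPM against 18.0, 15.3 and 17.9 CPM. The groups overlapped in both vectors, with differences of 0.09 (SE 0.09) and 0.005 (SE 0.09) (adjusted p = 0.8 and 0.98). PHOX2A was at 6.16, 5.13 and 6.07 CPM against 6.43, 5.86 and 6.33 CPM for miR-10a and at 8.83, 9.61 and 8.90 CPM against 6.91, 9.11 and 9.39 CPM for miR-10b. Its groups overlapped too, and its SEs of 0.14 and 0.12 are the widest of the 7, so a change as small as that of SIM1 would not be detectable at this depth.

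**Figure D3:**
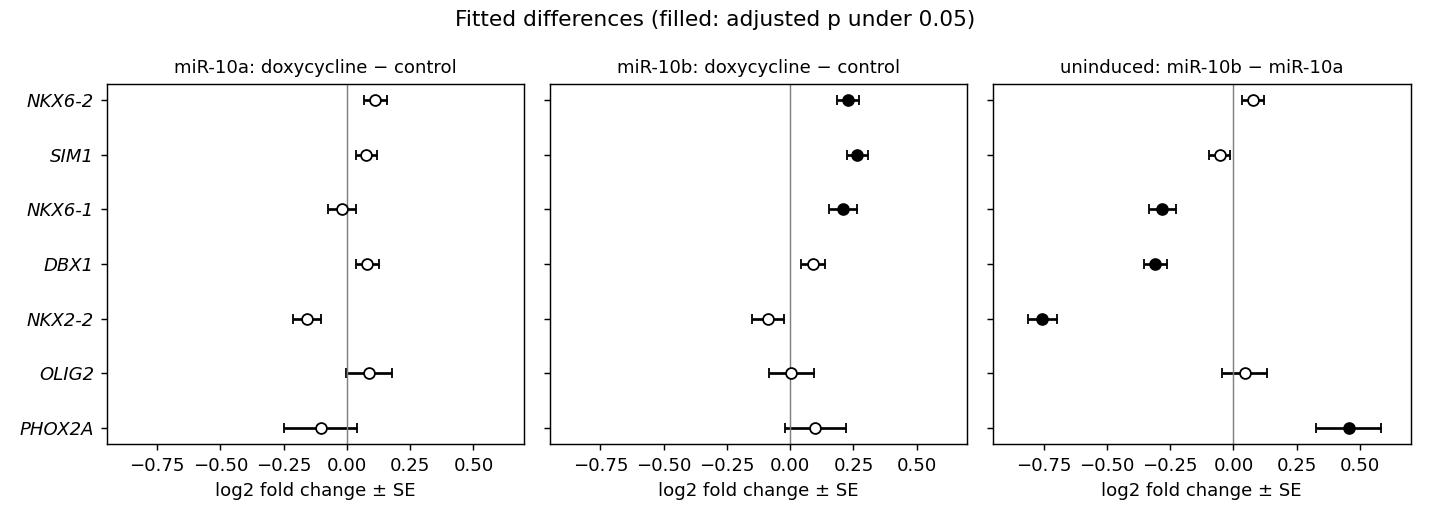
Fitted log2 fold change ± SE of each factor with miR-10a induced, with miR-10b induced, and between the uninduced cultures of the 2 vectors; filled points have an adjusted p under 0.05. SIM1, NKX6-2 and NKX6-1 are filled for miR-10b (0.27, 0.23 and 0.21), none for miR-10a, and NKX2-2 lies at -0.76 between the uninduced cultures.

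Calls were counted over the 7 members at an adjusted p under 0.05. With miR-10a 0 rose and 0 fell, where 0.472% of all tested genes rose and 0.742% fell. At an unadjusted p under 0.05 the count was 2 (NKX2-2 and NKX6-2), and DESeq2 called 0. With miR-10b 3 of 7 rose and 0 fell, against 8.18% and 7.15% of all tested genes. The median difference was 0.1 on the log2 scale over the 7 members and 0.02 over all tested genes. Averaged over both vectors 2 rose and 1 fell, against 7.67% and 6.22%, and the number of members called ranged from 2 to 4 with 1 sample left out. The 7 were chosen with results of these data known, so these shares describe the members and are no test of them.

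Samples did not overlap between doxycycline and control in 3 of 7 members for miR-10a (NKX2-2, NKX6-2 and DBX1), where 18.2% of all tested genes did not overlap. For miR-10b it was 5 of 7 (the same 3, SIM1 and NKX6-1), where 28.7% did not. With 3 samples against 3 an exact two-sided permutation test cannot give a p below 0.1. Permuted within each vector and taken over both, the exact two-sided p was 0.005 for NKX2-2, NKX6-2 and DBX1, the smallest that the 400 arrangements can give, 0.01 for SIM1, 0.185 for NKX6-1, 0.44 for OLIG2 and 0.88 for PHOX2A.

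Whether miR-10a and miR-10b differ in what they did to these genes was tested directly. No member passed, where 0.576% of all tested genes had a higher and 1.38% a lower response to miR-10b than to miR-10a. The nearest were SIM1, with a difference between the responses of 0.19 (SE 0.06, adjusted p = 0.096), and NKX6-1, with 0.23 (SE 0.08, adjusted p = 0.14). Both had an unadjusted p under 0.05, and DESeq2 called 0 of 7. Without miR-10b doxycycline replicate 3 both passed (0.23, adjusted p = 0.0237, and 0.29, adjusted p = 0.0201), and without replicate 2 none did. The rise of SIM1, NKX6-2 and NKX6-1 with miR-10b is thus not shown to differ from the response to miR-10a.

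Several other features moved with doxycycline. The 8 neural progenitor markers summed to 10300 to 10700 CPM with miR-10a induced and 10700 to 10800 CPM in the controls. For miR-10b the sums were 11400 to 11600 against 11900 to 12000 CPM. Of the 7 tested, 0 passed with miR-10a. With miR-10b 1 was higher and 3 lower, beside 8.18% and 7.15% of all tested genes. Over both vectors 0 were higher and 3 lower, beside 7.67% and 6.22%. The 8 floor plate markers summed to 2200 to 2260 CPM with miR-10a induced and 2080 to 2110 CPM in the controls, and to 3220 to 3280 CPM against 3040 to 3080 CPM for miR-10b. The shift was mostly that of SPON1, from 802 to 936 CPM with miR-10a and from 1170 to 1380 CPM with miR-10b. The list did not move as one: CORIN was at 5.88 against 7.1 CPM and at 12.8 against 21.8 CPM, and 1 of the 8 was called higher and 0 lower with miR-10a, 1 higher and 1 lower with miR-10b. The 8 postmitotic neuron markers summed to 1470 to 1510 CPM against 1560 to 1620 CPM for miR-10a and to 1500 to 1590 CPM against 1700 to 1740 CPM for miR-10b. Here the lower sums were mostly those of SYT4, at 897 against 1010.0 CPM and at 923 against 1120.0 CPM, while INA was at 551 against 537 CPM and at 591 against 554 CPM. Of the 5 neuron markers tested 0 were higher and 1 lower with miR-10a, and 1 was higher and 1 lower with miR-10b. The part of these shifts, and of the lower totals with doxycycline, in the differences of the members was not tested. In such bulk samples fewer cells of a type and less RNA per cell cannot be told apart.

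NKX2-2, DBX1, NKX6-1 and PHOX2A differed more between the uninduced cultures of the 2 vectors than with either microRNA, and SIM1, NKX6-2 and OLIG2 did not. Without doxycycline NKX2-2, DBX1 and NKX6-1 were lower in the miR-10b than in the miR-10a cultures and PHOX2A was higher, while NKX6-2, SIM1 and OLIG2 did not pass the test. This comparison shares its samples with the controls above, and the vector cannot be told apart from anything else that differed between the 2 sets of cultures.

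NKX2-2 was 1.69-fold lower, at 33.0 ± 1.39 CPM in the miR-10b controls against 55.7 ± 2.21 CPM in the miR-10a controls (SD, n = 3). The difference of -0.76 on the log2 scale (SE 0.06, adjusted p = 3.5e-13) placed it in the lowest 0.9% of all tested genes. DBX1 was 1.24-fold lower, at 80.5 ± 0.379 against 99.7 ± 4.39 CPM (adjusted p = 2.9e-06). NKX6-1 was 1.215-fold lower, at 69.2 ± 2.88 against 84.1 ± 3.68 CPM (adjusted p = 0.00022). For these 3 genes no miR-10b control overlapped the miR-10a controls.

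PHOX2A was 1.37-fold higher, at 8.47 ± 1.36 against 6.21 ± 0.305 CPM, with its lowest miR-10b control at 6.91 and its highest miR-10a control at 6.43 CPM. The call (0.46 on the log2 scale, SE 0.13, adjusted p = 0.012) rests on few counts, and it was lost with DESeq2 (adjusted p = 0.0505) and without miR-10a control replicate 2 (0.41, adjusted p = 0.0669), miR-10b control replicate 2 (0.40, adjusted p = 0.0706) or miR-10b control replicate 3 (0.38, adjusted p = 0.0907). The motor neuron enzyme CHAT was listed at 0 in every sample, but under 7 transcripts, among which reads that match several of them may not have been counted.

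In all, 1 of 7 members was higher and 3 were lower in the uninduced miR-10b cultures, against 7.41% and 6.72% of all tested genes. Samples did not overlap in 4 of 7 members, against 30.1% of all tested genes. The separation was also there with doxycycline: NKX2-2 and DBX1 were lower and PHOX2A higher in all 6 miR-10b samples than in all 6 miR-10a samples, while NKX6-1 overlapped, its miR-10b doxycycline samples lying between 72.5 and 88.2 CPM.

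Beside these differences the floor plate markers were higher in the uninduced miR-10b cultures, with sums of 3040 to 3080 CPM against 2080 to 2110 CPM. Of these markers 7 of 8 passed the test as higher, against 7.41% of all tested genes. FOXA1, a floor plate factor, was at 591 against 409 CPM. The neural progenitor markers summed to 11900 to 12000 CPM against 10700 to 10800 CPM, with 3 higher and 2 lower of the 7 tested, among them SOX1 at 22.2 against 52.2 CPM. The oligodendrocyte precursor markers, a later fate of OLIG2 progenitors, summed to 38.3 to 38.8 against 31.5 to 33.1 CPM. Of the 3 tested 1 was higher and 0 lower. PDGFRA was at 19 against 10.8 CPM, while CSPG4 was at 7.55 against 9.04 CPM and OLIG1 at 11.6 CPM in both, with GPR17, listed under 4 transcripts, at 0 in every sample. The 6 pluripotency genes summed to 568 to 578 against 632 to 671 CPM, nearly all of it LIN28B and DPPA4. Their part in the differences of the 7 members was not tested.

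The other genes of the pathway were taken from 3 lists. Hedgehog transduction was measured by 11 of 13 listed genes, GLI1 and CDON being under the count limit. With miR-10a 0 of 11 passed the test. With miR-10b 0 rose and 2 fell, beside shares of 8.18% and 7.15% over all tested genes. The 2 that fell were GLI2 and GLI3, both GLI transcription factors of the pathway. GLI2 was at 9.68 CPM with miR-10b induced and 12.3 CPM in the controls (-0.34 on the log2 scale, SE 0.11, adjusted p = 0.035). GLI3 was at 136 against 149 CPM (-0.14, SE 0.04, adjusted p = 0.014). The count of 2 was 0 without miR-10b doxycycline replicate 1, and 1 without miR-10b doxycycline replicate 3, control replicate 1 or control replicate 2 or with the samples of the vector alone. Over both vectors the same 2 fell and 0 rose, beside 6.22% and 7.67% of all tested genes. This count of 2 was 1 in 8 of the 12 fits that left out 1 sample (without miR-10a doxycycline replicate 1, 2 or 3, miR-10a control replicate 2 or 3, miR-10b doxycycline replicate 1 or 3, or miR-10b control replicate 1). The ligand SHH was at 601 against 626 CPM and the transducer SMO at 369 against 370.0 CPM, and neither passed the test (adjusted p = 0.23 and 0.96). The targets PTCH1, at 9.59 against 9.18 CPM, and HHIP, at 4.11 against 3.61 CPM, did not pass either (adjusted p = 0.76 and 0.56). PTCH1 was listed under 7 transcripts, so that its true level may be far higher.

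Between the uninduced cultures 2 of the 11 Hedgehog genes were higher with miR-10b and 2 lower, beside 7.41% and 6.72% of all tested genes. GLI2 was at 12.3 against 25.4 CPM (-1.06 on the log2 scale, SE 0.09, adjusted p = 1.9e-11), and GAS1, a co-receptor for the ligand, was lower by -0.36 (SE 0.12, adjusted p = 0.046). SHH (0.16, SE 0.03, adjusted p = 0.00016) and DISP1, which releases the ligand from cells (0.31, SE 0.05, adjusted p = 3.1e-06), were higher. The median over the list was -0.14 against -0.01 over all tested genes.

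Of 25 dorsoventral partner and cross-repressing factors 15 were tested, and PAX6, a repressor of NKX2-2, was among the 10 under the count limit, listed under 7 transcripts, so that its true level may be far higher. IRX3, the factor that shares a border with OLIG2, fell with miR-10a from 76.0 to 63.2 CPM (-0.27 on the log2 scale, SE 0.06, adjusted p = 0.012). It was at 36.7 against 41.1 CPM with miR-10b (-0.16, SE 0.07, adjusted p = 0.12). The IRX3 call with miR-10a was lost without miR-10a doxycycline replicate 1 or 3 or control replicate 2 or 3. Over both vectors IRX3 (-0.21, SE 0.05, adjusted p = 0.0012) and MSX1, a factor of the floor plate and dorsal midline (-0.21, SE 0.06, adjusted p = 0.01), fell. In all, 3 of 15 fell and 0 rose over both vectors, beside 6.22% and 7.67% of all tested genes. Tested for a difference between the responses to miR-10a and miR-10b, 0 genes of any of the 3 lists passed, except that 1 of the neuron factors did without miR-10a doxycycline replicate 2 and without miR-10b doxycycline replicate 3. The dorsal bHLH factor OLIG3 and the OLIG2 neighbour OLIG1 did not pass in any comparison.

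Several of these 15 differed between the uninduced cultures, 4 higher with miR-10b and 2 lower, beside 7.41% and 6.72% of all tested genes. With miR-10b FERD3L, a bHLH factor of the ventral midbrain floor plate, was higher by 1.02 on the log2 scale (SE 0.05, adjusted p = 4.5e-19), FOXA1 by 0.53 (SE 0.03, adjusted p = 5e-16) and NKX2-1 by 0.94 (SE 0.27, adjusted p = 0.013). IRX3 was lower by -0.89 (SE 0.06, adjusted p = 9.9e-14) and NKX2-8, a relative of NKX2-2, by -1.38 (SE 0.21, adjusted p = 4.7e-06). NKX2-2 and IRX3, which in the spinal cord hold separate domains on either side of OLIG2, were thus both lower in the same cultures.

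Of 31 neuron factors downstream of the ventral domains 18 were tested. With miR-10a 0 passed, a count that was 1 with no count filter, with the samples of that vector alone, and without miR-10b doxycycline replicate 2 or 3. With miR-10b 2 rose and 1 fell, beside shares of 8.18% and 7.15% over all tested genes, so the list is not far from the background. LHX5, a LIM homeodomain factor of interneurons, rose from 57.8 to 66.2 CPM (0.20 on the log2 scale, SE 0.05, adjusted p = 0.0064). UNCX, a homeodomain factor, rose from 85.3 to 95.4 CPM (0.16, SE 0.05, adjusted p = 0.013) and was at 79.7 against 70.3 CPM with miR-10a (0.18, SE 0.05, adjusted p = 0.051). POU4F1, a factor of the red nucleus, fell from 6.24 to 4.14 CPM (-0.59, SE 0.15, adjusted p = 0.0054), with 2.74 CPM in the miR-10a controls. Over both vectors UNCX and PITX3, a dopaminergic neuron factor at 4.72 to 6.59 CPM, rose (PITX3 by 0.40, SE 0.11, adjusted p = 0.014). These 2 of 18 that rose, with 0 that fell, stand beside 7.67% and 6.22% of all tested genes. The count of 2 was 1 without miR-10a doxycycline replicate 1 or miR-10b doxycycline replicate 2. Between the uninduced cultures 5 of 18 were higher and 4 lower, beside 7.41% and 6.72% of all tested genes. Among them was SIM2, the paralog of SIM1, which was lower by -0.60 (SE 0.045, adjusted p = 4.9e-13) while SIM1 itself differed by -0.05 (SE 0.04, adjusted p = 0.47).

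**Figure D4:**
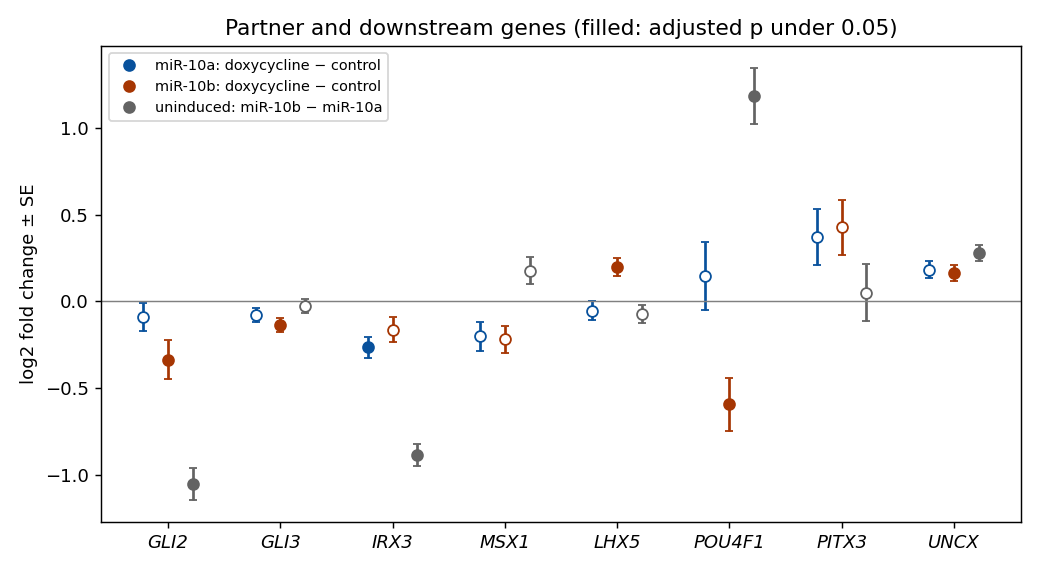
Fitted log2 fold change ± SE of 8 list genes that passed the test in at least 1 of the doxycycline comparisons, with miR-10a induced, with miR-10b induced and between uninduced cultures; filled points have an adjusted p under 0.05. GLI2 and IRX3 lie near -1.06 and -0.89 between the uninduced cultures, and MSX1 and PITX3 passed only when both vectors were averaged.

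The genes whose pattern over the 12 samples was most like that of each member were found by the root mean square difference between standardised log2(CPM + 0.5) profiles, among 2084 genes with a mean above 50 counts and a range of at least 0.5 on that scale. OLIG2, which passed no test, was left out. This is a description over 12 samples that share their vectors and libraries. For NKX2-2 the nearest were SP5, a transcription factor induced by WNT signalling (difference 0.096), CRABP1, a retinoic acid binding protein (0.111), and SOX1, a neural progenitor factor (0.13). All 3 stepped down between the vectors and were lower with doxycycline, SP5 being at 55.2 and 48.1 CPM in the miR-10a controls and doxycycline samples, and CRABP1 at 211 and 192 CPM.

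For DBX1 the nearest were DTX4 (0.245), the WNT5A receptor ROR2 (0.286) and SOX8 (0.295), each lower in the miR-10b cultures. PHOX2A was most like DISP1 (0.335), SPEF1 (0.356) and DNAH7 (0.357), of which the last is an axonemal dynein chain. NKX6-2 was nearest to the elongation factor EEF1A2 (0.229), CEND1 (0.273) and PLEKHA6 (0.28), each highest with miR-10b induced. SIM1 and NKX6-1 had less similar neighbours: SLC27A1, CCDC183-AS1 and ANKRD20A19P at 0.343 to 0.378 for SIM1, and LMF1, NGFR and LOC283177 at 0.448 to 0.472 for NKX6-1.

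**Figure D5:**
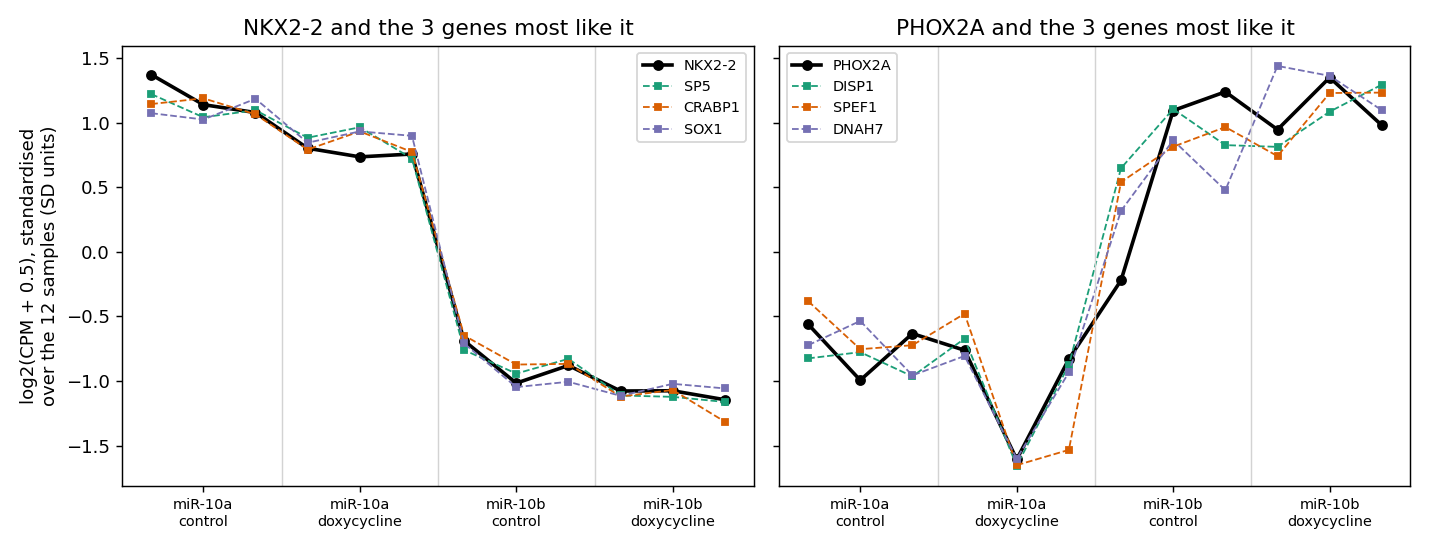
Standardised log2(CPM + 0.5) in the 12 samples (SD units) of NKX2-2 and of PHOX2A, each with the 3 genes of the most similar profile. NKX2-2, SP5, CRABP1 and SOX1 are high in the 6 miR-10a samples and low in the 6 miR-10b samples, with the doxycycline samples of each vector below most of their controls, while PHOX2A is low with miR-10a and high with miR-10b.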

How the data were processed

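The deposited files hold raw counts of reads per RefSeq transcript for each of the 12 samples, which the authors made from single-end reads of 50 bases. The submitters' processing notes name STAR, featureCounts and Subread and the build hg19, with no versions. Repeated rows of a transcript were dropped (51799 rows, 48101 transcripts), and each gene was represented by its transcript with the highest mean count. Genes with 1 transcript held 92.84% of counts. Where reads fit several transcripts of a gene, these counts can be far below the gene's true level. Counts were tested with edgeR 4.0.16 (R 4.3.3) by the quasi-likelihood test, with the total count as library size, genes above a mean of 10 counts, 1 mean per group, 5 contrasts and Benjamini-Hochberg adjustment at 0.05. The fit was tested on simulated data. CPM values are counts scaled to a library total of 1000000.

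Alternatives were TMM factors, DESeq2 1.42.0, other count filters, a replicate block, counts summed over transcripts, fits of 1 vector and leaving out each sample. Sequence matches used Python 3.11.15. The members and the gene lists were chosen with earlier results of these data known. Named list genes are the at most 6 of each list with the smallest adjusted p over both vectors among those called in a doxycycline comparison, and likeness covers the 6 members past the threshold in any contrast; FOXA1, FERD3L, NKX2-1, NKX2-8, SIM2, SHH, SMO, GAS1, DISP1, PTCH1, HHIP, OLIG1, OLIG3 and the markers were named after their values were seen. Some genes of these lists are not reported here.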

Additional observations from a re-analysis of the deposited data

How the results depend on the processing

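The calls of SIM1 and NKX6-2 with miR-10b and over both vectors, and of NKX2-2, DBX1 and NKX6-1 between the uninduced cultures, were kept under every alternative and with each sample left out. The fall of NKX2-2 over both vectors was lost with no count filter (-0.12, adjusted p = 0.0834) and with a replicate block (-0.12, adjusted p = 0.0593), and ranged from -0.14 to -0.11 with 1 sample left out. NKX6-1 with miR-10b ranged from 0.13 to 0.27, and PHOX2A between uninduced cultures from 0.38 to 0.58 with 1 sample left out and was lost with DESeq2 (0.46). The member count for the difference of responses became 1 with no filter (SIM1) and ranged from 0 to 2 with 1 sample left out. Same-numbered samples did not deviate together (correlations of their deviations from -0.0319 to 0.0082), and the block changed no other member's call.

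Over all genes, the miR-10a count of 139 was 275 from the samples of that vector alone and ranged from 75 to 268 with 1 sample left out, and the count of 224 for the difference was 343 with no filter and ranged from 140 to 339. Higher and lower calls were 937 and 819 for miR-10b but 498 and 808 with DESeq2, 878 and 712 over both vectors but 665 and 852 with TMM and 459 and 740 with DESeq2, 54 and 85 for miR-10a but 35 and 90 with DESeq2, and 66 and 158 for the difference but 23 and 150 with DESeq2. The cause of these shifts was not tested. Fits of 1 vector give no value over both vectors.

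Signs turned only for values near 0 that passed no test. OLIG2 with miR-10b was -0.012 with TMM, -0.017 with DESeq2, and ranged from -0.071 to 0.045 with 1 sample left out. PHOX2A over both vectors was 0.001 with the block and ranged from -0.063 to 0.041. In the same way NKX6-1 with miR-10a ranged from -0.046 to 0.015, DBX1 in the difference of responses from -0.037 to 0.047, OLIG2 between uninduced cultures from -0.023 to 0.127, and PHOX2A with miR-10b from -0.022 to 0.18. The order of levels used lengths of the counted models, without which 4 members changed rank. Of the 18 genes most like a member 16 were also chosen with a pseudocount of 2.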
